A study of Arabidopsis thaliana with 12 samples.

Results

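The genes described here encode the route from stored seed oil to sugar: 36 genes for oil lipases, peroxisomal import, fatty acid activation, beta-oxidation, the glyoxylate cycle, the first step of gluconeogenesis and the catalases. They were taken by locus identifier from a count table of 36795 entries, and all 36 were found. The RNA came from germinating seeds of Arabidopsis thaliana, in 3 transgenic lines. Both amiR-SYD-1 and amiR-SYD-2 (called SYD1 and SYD2 here) carry an artificial microRNA against SPLAYED (SYD), which encodes an ATPase of SWI/SNF chromatin remodellers, and amiR-HsMYO (HsMYO) is the line that the labels name as the wild-type control. Seeds of each line were sown on medium with 2 µM (±)-abscisic acid (ABA), the hormone that holds back germination, or with 0.002% ethanol, its solvent, kept for 3 days in the cold and dark, and then given 24 h of long days. All 6 groups thus share the cold and dark treatment. Each group had 2 libraries, which the labels call biological replicates; nothing says that they came from separate sowings, so the p-values measure the spread between these samples. Neither the promoter that drives the microRNAs nor whether each line is a single transformant is given in the sources used here.

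An Arabidopsis seedling lives on its oil until its cotyledons turn green. Lipases free fatty acids from the oil body, an ABC transporter carries them into the peroxisome, and the beta-oxidation spiral there cuts them into acetyl-CoA while an oxidase releases hydrogen peroxide, which catalase removes. Isocitrate lyase and malate synthase, the enzymes particular to the glyoxylate cycle, join acetyl-CoA into organic acids without loss of carbon, and phosphoenolpyruvate carboxykinase then opens the way to sucrose. Most steps are encoded by several genes, whose products differ in chain length, tissue or timing.

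Libraries held 18713555 to 30012796 counts, so that 3 counts corresponded to 0.1 to 0.16 CPM, the count scaled to a common library total. SYD itself read 145 and 153 CPM in SYD1 on ABA and 101 and 108 on ethanol, 126 and 147 in SYD2 on ABA and 98.6 and 108 on ethanol, against 196 and 230 in HsMYO on ABA and 185 and 178 on ethanol. The SYD line mean was lower than HsMYO by -0.58 on ABA (log2, adjusted p = 3.7e-05) and -0.81 on ethanol (adjusted p = 1.4e-06), so the targeted transcript was reduced and not absent. The tissue label was checked against marker genes. The 5 seed storage markers (cruciferins, an albumin and oleosins) were present in every library and summed to 911 to 1400 CPM on ABA and 54.8 to 246 CPM on ethanol. The 3 endosperm markers summed to 3240 to 4940 CPM on ABA and 2380 to 4460 CPM on ethanol, and the 2 green-cell markers to 1830 to 2530 CPM on ABA and 2060 to 2900 CPM on ethanol, whereas the 3 seed coat markers were at or near 0 (0 to 0.264 CPM). The 2 root epidermis markers summed to 0 to 0.137 CPM on ABA and 2.16 to 18.8 CPM on ethanol. On ABA 5 of 5 storage markers were called higher in SYD1, 4 in SYD2 and 3 in HsMYO, and 2 of 3 endosperm markers in SYD1, 3 in SYD2 and 2 in HsMYO, among them MAN7 by 2.44 in SYD1, 2.46 in SYD2 and 2.65 in HsMYO (log2). Both root markers were called lower in each line, as were 2 of 2 green-cell markers in SYD1, 1 in SYD2 and 1 in HsMYO, with LHCB1.1 at -5.9 in SYD1, -3.14 in SYD2 and -3.09 in HsMYO. The part of these markers in the results below was not tested. In such bulk RNA, fewer cells of a type and less RNA per cell cannot be told apart.

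The 36 genes took a large share of the seed's messenger RNA. They held 5.49% and 5.49% of the counts of SYD1 on ABA and 5.37% and 5.4% on ethanol, 5.42% and 5.57% of SYD2 on ABA and 5.85% and 5.38% on ethanol, against 4.33% and 4.05% of HsMYO on ABA and 4.34% and 4.21% on ethanol. Every SYD line library lay above every HsMYO library. ICL, the gene of isocitrate lyase (AT3G21720, chromosome 3, 7652487 to 7656053 in TAIR10.1, as for the other positions), ranked first among all genes in each of the 12 libraries, and without it the members held 2.72% to 3.02% in the SYD lines and 2.3% to 2.61% in HsMYO. Per kilobase of exon, ICL averaged 10600 CPM per kb over the groups, PCK1 for phosphoenolpyruvate carboxykinase 2340, MLS for malate synthase 2140, ACO3 for an aconitase 1160, KAT2 for a 3-ketoacyl-CoA thiolase 1000, CAT2 for a catalase 878 and MFP2 for a multifunctional protein of beta-oxidation 751. At the low end on this scale were ACN1 for peroxisomal acetyl-CoA synthetase at 7.31 CPM per kb, KAT5 for another thiolase at 4.5 and CSY1 for a citrate synthase at 0.0525. CSY1 had 0 to 6 counts per library and was not tested, which left 35 members in each comparison.

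The first question was what ABA did to this route. ICL, MLS, PCK1, KAT2 and MFP2 were called in no line, ACO3, likewise among the most abundant members, fell in all 3, and the make-up of several enzyme families shifted, with 1 gene of a family higher and its relative lower in all 3 lines. Of the 35 members, 12 were called higher and 11 lower in SYD1, 9 and 9 in SYD2, and 12 and 10 in HsMYO, by edgeR's quasi-likelihood test at a Benjamini-Hochberg adjusted p under 0.05. Of all 19612 tested genes, 21.7% were called higher and 25.2% lower in SYD1, 19.4% and 23.6% in SYD2, and 26.9% and 27.1% in HsMYO. In either direction the called share was 65.7% of the members against 46.9% of all genes in SYD1, 51.4% against 42.9% in SYD2 and 62.9% against 54% in HsMYO. The members' median log2 fold change was 0.03 in SYD1, -0.03 in SYD2 and -0.03 in HsMYO, beside 0, 0 and 0.02 for all tested genes. CAT3 in HsMYO and CAT3 and KAT5 in each SYD line were the members past 2-fold. In all 3 lines 9 members rose (SDP1L, PNC1, ACN1, IBR3, AIM1, KAT5, IBR1, ACO1 and CAT1; 14.6% of all genes) and 8 fell (SDP1, PNC2, ACX1, ACX2, ACX3, CSY2, ACO3 and CAT3; 18% of all genes). Of these 17, ACN1, IBR1, IBR3, CAT1, SDP1, PNC2, ACX1, ACX3, CSY2 and CAT3 were called in every line under every alternative run, including without each library in turn. Without SYD1 on ethanol replicate 2, 7 members instead of 11 were lower in SYD1.

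**Figure D1:**
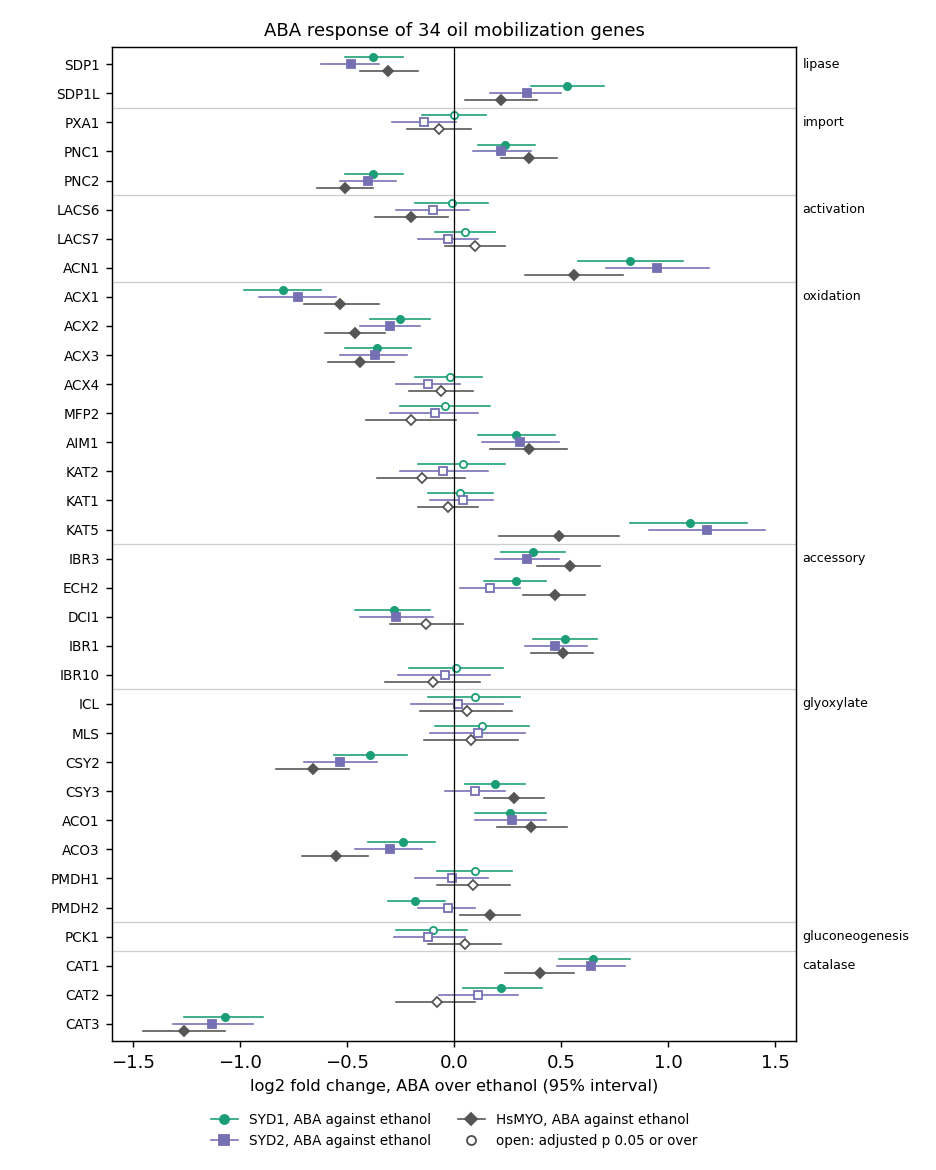
Log2 fold change on ABA against ethanol (x axis) of 34 tested members (rows, grouped by role), with circles for SYD1, squares for SYD2 and diamonds for HsMYO; lines are 95% intervals, and open symbols have an adjusted p of 0.05 or over. CAT3 lies farthest to the left in each line, KAT5 farthest to the right in SYD1 and SYD2, and ICL, MLS and PCK1 lie near 0 in all lines.

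In none of the lines were 11 members called, among them ICL, PCK1 and MLS, the 3 with the highest level per kb. ICL read 27400 and 27800 CPM on ABA, against 25300 and 26200 on ethanol, in SYD1. In SYD2 it read 26200 and 27700 on ABA, against 29600 and 23700 on ethanol, and in HsMYO 18600 and 16400, against 17300 and 16300. Its ABA change was 0.1 in SYD1 (95% interval -0.12 to 0.31), 0.02 in SYD2 (-0.2 to 0.23) and 0.06 in HsMYO (-0.16 to 0.27), and the ABA and ethanol libraries overlapped in SYD2 and HsMYO. MLS changed by 0.13 in SYD1 (-0.09 to 0.35), 0.11 in SYD2 (-0.11 to 0.33) and 0.08 in HsMYO (-0.14 to 0.3). PCK1 changed by -0.1 in SYD1 (-0.27 to 0.06), -0.12 in SYD2 (-0.28 to 0.05) and 0.05 in HsMYO (-0.12 to 0.22). These intervals leave room for changes of up to about 0.35 on the log2 scale. MFP2, KAT2 and PMDH1 (peroxisomal malate dehydrogenase, which regenerates NAD for beta-oxidation) were also not called, nor were KAT1, ACX4, IBR10, PXA1 and LACS7. MFP2 changed by -0.04 in SYD1 (-0.25 to 0.17), -0.09 in SYD2 (-0.3 to 0.11) and -0.2 in HsMYO (-0.41 to 0.01). KAT2 changed by 0.04 in SYD1 (-0.17 to 0.24), -0.05 in SYD2 (-0.25 to 0.16) and -0.15 in HsMYO (-0.36 to 0.05). In HsMYO both intervals leave room for decreases past 0.35. PMDH2 was called in opposite directions in SYD1 (-0.18, adjusted p = 0.037) and HsMYO (0.17, adjusted p = 0.035), and changed by -0.03 in SYD2 (not called). Both calls were lost in several alternatives (7 of 17 and 12 of 17), with sizes of -0.2 to -0.14 and 0.13 to 0.2. The PMDH2 response of the SYD line mean minus that of HsMYO was not called (-0.27, 95% interval -0.44 to -0.11, adjusted p = 0.059).

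Lipases and import gave the first opposed pairs. SDP1 (AT5G04040) encodes the main triacylglycerol lipase of the oil body, and SDP1L its closest relative. SDP1 read 95.9 and 97.9 CPM on ABA, against 129 and 122 on ethanol, in SYD1, 99.1 and 97.6 against 134 and 141 in SYD2, and 94.8 and 97.4 against 119 and 119 in HsMYO. ABA and ethanol libraries stood apart in each line, with changes of -0.38 in SYD1, -0.48 in SYD2 and -0.31 in HsMYO (highest adjusted p = 0.00071). SDP1L read 64 and 66.2 against 42.4 and 47.8 CPM in SYD1, 64.1 and 62.5 against 46.5 and 53.5 in SYD2, and 46.1 and 49.9 against 42.1 and 40.6 in HsMYO. It rose by 0.53 in SYD1 (adjusted p = 6.1e-05), by 0.34 in SYD2 (adjusted p = 0.0027) and by 0.22 in HsMYO (adjusted p = 0.032), the last lost in 9 of 17 alternatives (0.16 to 0.27, highest adjusted p = 0.24), among them RLE scaling, DESeq2 and the omission of HsMYO on ABA replicate 2, either HsMYO ethanol library, SYD1 on ethanol replicate 1 or SYD2 on ABA replicate 1. Of the lipase counts per kb, SDP1L held 43.1% and 43.4% on ABA, against 27.1% and 30.8% on ethanol, in SYD1, 42.4% and 42.1% against 28.2% and 30.2% in SYD2, and 35.6% and 36.8% against 28.7% and 27.9% in HsMYO. PXA1, the ABC transporter that brings acyl groups in, was not called.

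PNC1 and PNC2 encode the carriers that bring ATP into the peroxisome for fatty acid activation. PNC2 (AT5G27520) read 84.7 and 87.4 CPM on ABA, against 111 and 113 on ethanol, in SYD1, 89.7 and 91 against 117 and 121 in SYD2, and 72.5 and 74.6 against 103 and 106 in HsMYO. It fell by 0.38 in SYD1, 0.4 in SYD2 and 0.51 in HsMYO on the log2 scale (highest adjusted p = 0.00012), whereas PNC1 rose by 0.24 in SYD1, 0.22 in SYD2 and 0.35 in HsMYO (highest adjusted p = 0.0097). The rise of PNC1 in SYD2 was lost without SYD2 on ABA replicate 2 or SYD2 on ethanol replicate 1 (0.18 to 0.27 over all alternatives, highest adjusted p = 0.098). PNC1 held 46.7% and 46.4% of the carrier counts per kb on ABA, against 36.6% and 35.8% on ethanol, in SYD1, 45.5% and 46.7% against 35.6% and 35.8% in SYD2, and 51% and 51.4% against 36.6% and 36.7% in HsMYO, with no overlap between the treatments in any line. Of the acyl-CoA synthetases that activate fatty acids inside the peroxisome, LACS7 was not called, and LACS6 was called lower in HsMYO only (-0.2, adjusted p = 0.045), a call lost in 7 of 17 alternatives. The LACS6 response of the SYD line mean minus that of HsMYO was not called (0.15, adjusted p = 0.45). ACN1, the gene of the synthetase that returns free acetate to the pathway, read 26.8 and 25.6 CPM on ABA, against 15.1 and 14.5 on ethanol, in SYD1, 23.4 and 23.9 against 14.1 and 10.6 in SYD2, and 24.1 and 21.5 against 16.5 and 14.5 in HsMYO. It rose by 0.82 in SYD1, 0.95 in SYD2 and 0.56 in HsMYO (highest adjusted p = 0.00048).

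In the beta-oxidation spiral the long-chain and medium-chain oxidases fell while the short-chain oxidase was not called. Acyl-CoA oxidases carry out the first, hydrogen peroxide-forming step; ACX1 and ACX2 act on long chains, ACX3 on medium chains and ACX4 on short chains. ACX1 (AT4G16760) read 203 and 202 CPM on ABA, against 365 and 342 on ethanol, in SYD1, 200 and 197 against 356 and 303 in SYD2, and 227 and 200 against 305 and 309 in HsMYO. It fell by 0.8 in SYD1, 0.73 in SYD2 and 0.53 in HsMYO on the log2 scale (highest adjusted p = 7.4e-05). Its estimate was larger than that of ACX2 or ACX3 in each line, but differences between genes were not tested. In HsMYO the 95% intervals overlapped (-0.7 to -0.35 for ACX1, -0.6 to -0.32 for ACX2 and -0.59 to -0.28 for ACX3). In SYD1 the interval of ACX1 (-0.98 to -0.62) did not overlap those of ACX2 (-0.39 to -0.11) and ACX3 (-0.51 to -0.2). The same held in SYD2 (-0.91 to -0.55 for ACX1, -0.44 to -0.16 for ACX2 and -0.53 to -0.22 for ACX3). ACX2 fell by 0.25 in SYD1, 0.3 in SYD2 and 0.46 in HsMYO, with the SYD1 call lost without SYD1 on ethanol replicate 1 (highest adjusted p = 0.069). ACX3 fell by 0.36 in SYD1, 0.37 in SYD2 and 0.44 in HsMYO. ACX4 changed by -0.02 in SYD1 (95% interval -0.18 to 0.13), -0.12 in SYD2 (-0.27 to 0.03) and -0.06 in HsMYO (-0.21 to 0.09). ACX4 held 38.2% and 37.3% of the oxidase counts per kb on ABA, against 31.5% and 32% on ethanol, in SYD1, 38.3% and 37% against 32.7% and 33.4% in SYD2, and 38.3% and 37.9% against 31.1% and 32.4% in HsMYO.

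At the next steps of the spiral AIM1 and KAT5, the less abundant relatives of MFP2 and KAT2, rose in all lines. MFP2 and AIM1 encode the multifunctional proteins that hydrate and dehydrogenate the chain, and AIM1 rose by 0.29 in SYD1, 0.31 in SYD2 and 0.35 in HsMYO (highest adjusted p = 0.011). Its calls in SYD1 and SYD2 were lost without replicate 1 of the line on ABA or replicate 2 of the line on ethanol (highest adjusted p = 0.097 and 0.081). AIM1 held 8.16% to 8.58% of the counts per kb of this pair on ABA, beside 5.69% to 6.79% on ethanol. Among the thiolases that close each turn, KAT2 held 96.1% to 97.4% of the counts per kb in every library, and neither KAT2 nor KAT1 was called. KAT5 (AT5G48880) read 17.5 and 18.3 CPM on ABA, against 8.12 and 8.62 on ethanol, in SYD1, 14.7 and 18.9 against 6.72 and 8.06 in SYD2, and 9.81 and 9.69 against 7.11 and 6.77 in HsMYO. It rose by 1.1 in SYD1 (adjusted p = 4.4e-06), by 1.18 in SYD2 (adjusted p = 1.9e-06) and by 0.49 in HsMYO (adjusted p = 0.0054; lost without HsMYO on ethanol replicate 2, highest adjusted p = 0.059).

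Accessory enzymes handle unsaturated chains or shorten the auxin precursor indole-3-butyric acid, and of their 5 genes IBR1 and IBR3 rose in all lines. IBR1, for a dehydrogenase or reductase of indole-3-butyric acid conversion, read 107 and 98.5 CPM on ABA, against 70.8 and 72.4 on ethanol, in SYD1, 110 and 103 against 73.7 and 79.8 in SYD2, and 105 and 99.4 against 71.8 and 72 in HsMYO. It rose by 0.52 in SYD1, 0.47 in SYD2 and 0.51 in HsMYO (highest adjusted p = 4.5e-05). IBR3, for an acyl-CoA dehydrogenase-like protein of the same conversion, rose by 0.37 in SYD1, 0.34 in SYD2 and 0.54 in HsMYO (highest adjusted p = 0.00087). ECH2, for an enoyl-CoA hydratase, rose in SYD1 (0.29) and HsMYO (0.47) and changed by 0.17 in SYD2 (adjusted p = 0.053). The ECH2 response of the SYD line mean minus that of HsMYO was not called (-0.24, adjusted p = 0.12). Whether the responses of SYD1 and SYD2 differ was not tested. DCI1, for an isomerase of unsaturated chains, fell in SYD1 (-0.28) and SYD2 (-0.27) and changed by -0.13 in HsMYO (adjusted p = 0.19). The DCI1 response of the SYD line mean minus that of HsMYO was not called (-0.15, adjusted p = 0.45). Both DCI1 calls were lost without replicate 2 of the line on ABA, and also without SYD1 on ethanol replicate 2 or SYD2 on ethanol replicate 1 (highest adjusted p = 0.14 and 0.09). IBR10, the remaining gene of the set, was not called. IBR3 and AIM1 overlap genes on the opposite strand, AT3G06820 and AT4G29000, by 29 and 23 bp. Those genes were also higher on ABA in HsMYO (0.33 and 0.35) and in SYD1 (0.35 and 0.43). In SYD2 AT4G29000 was higher (0.34) and AT3G06820 was not called (0.2, adjusted p = 0.064). Their levels in HsMYO were lower than those of IBR3 and AIM1, 30.7 and 23.5 CPM on ABA against 24.4 and 18.5 on ethanol. Since the strand setting of the counting is not stated, reads of each pair may not be separated. KAT5, ECH2 and CAT2 likewise overlap genes with reads on the opposite strand, by 160, 297 and 95 bp.

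In the glyoxylate cycle ICL and MLS were not called, while CSY2 and ACO3 fell and ACO1 rose in all lines. CSY2, a peroxisomal citrate synthase gene, read 88.5 and 86.9 CPM on ABA, against 119 and 112 on ethanol, in SYD1, 86.3 and 84.1 against 128 and 118 in SYD2, and 65.6 and 55.6 against 99.1 and 92.6 in HsMYO. It fell by 0.39 in SYD1, 0.53 in SYD2 and 0.66 in HsMYO (highest adjusted p = 8e-04). CSY3, the abundant member, rose by 0.19 in SYD1 (adjusted p = 0.025) and 0.28 in HsMYO (adjusted p = 0.0021) and changed by 0.1 in SYD2 (adjusted p = 0.23). The CSY3 call in SYD1 was lost without any of the 4 SYD1 libraries (0.18 to 0.2) and that in HsMYO without HsMYO on ethanol replicate 2 or with only the groups compared (0.21 to 0.32). ACO3, the most abundant aconitase gene, read 3970 and 3960 CPM on ABA, against 4740 and 4630 on ethanol, in SYD1, 3990 and 4060 against 5010 and 4940 in SYD2, and 3010 and 2830 against 4420 and 4150 in HsMYO. It fell by 0.24 in SYD1 (adjusted p = 0.012), 0.3 in SYD2 (adjusted p = 0.0031) and 0.55 in HsMYO (adjusted p = 1.1e-05), and the SYD1 call was lost without any of the 4 SYD1 libraries (highest adjusted p = 0.096). ACO1 rose by 0.26 in SYD1, 0.27 in SYD2 and 0.36 in HsMYO (highest adjusted p = 0.011), with the SYD1 and SYD2 calls lost in 3 and 2 of 17 alternatives (highest adjusted p = 0.11 each): without SYD1 on ABA replicate 1 or 2 or SYD1 on ethanol replicate 2, and without SYD2 on ABA replicate 1 or SYD2 on ethanol replicate 2.

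CAT3 fell and CAT1 rose in all lines among the catalases. CAT2, which predominates in these seeds, CAT3, whose transcript peaks late in the day in seedlings, and CAT1, known as the ABA-inducible catalase gene, all remove the hydrogen peroxide that the oxidases make. CAT3 (AT1G20620, chromosome 1, 7142972 to 7146540) read 246 and 254 CPM on ABA, against 526 and 526 on ethanol, in SYD1, 225 and 234 against 523 and 479 in SYD2, and 142 and 115 against 306 and 307 in HsMYO. The fall was 2.11-fold in SYD1, 2.18-fold in SYD2 and 2.39-fold in HsMYO (highest adjusted p = 6.8e-08), and it was called under every alternative. CAT1, its neighbour on the same strand, read 59.9 and 65.1 CPM on ABA, against 38 and 41.5 on ethanol, in SYD1, 68.6 and 64.2 against 42.7 and 42.4 in SYD2, and 66.5 and 59.9 against 49.7 and 46.3 in HsMYO. It rose by 0.65 in SYD1, 0.64 in SYD2 and 0.4 in HsMYO (highest adjusted p = 0.00034). CAT2 was called higher in SYD1 (0.22, adjusted p = 0.046; lost in 8 of 17 alternatives, highest adjusted p = 0.24) and changed by 0.11 in SYD2 and -0.08 in HsMYO. Of the catalase counts per kb, CAT3 held 6.63% and 6.96% on ABA, against 15% and 15.7% on ethanol, in SYD1, 6.13% and 6.7% against 14.3% and 13.8% in SYD2, and 4.57% and 4.42% against 9.36% and 10.1% in HsMYO.

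**Figure D2:**
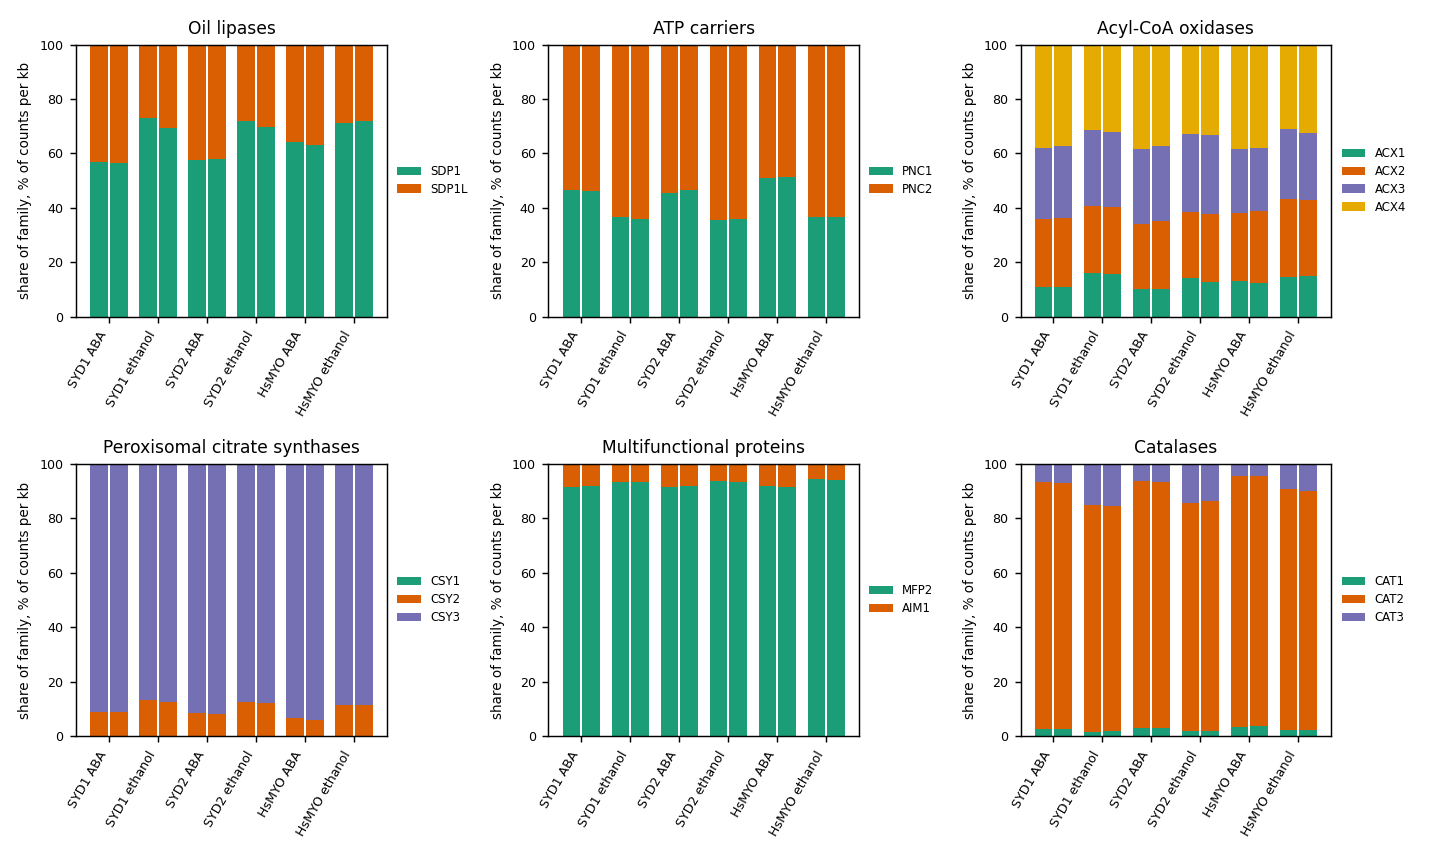
Share of each gene in its enzyme family (y axis, % of the family's counts per kb of exon) in each of the 12 libraries, drawn as a pair of bars per group for replicates 1 and 2. On ABA the shares of SDP1L, PNC1, ACX4 and CSY3 are larger and those of ACX1, CSY2 and CAT3 smaller than on ethanol in all 3 lines.

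Sequences upstream of the gene starts are shown for members on either side of these shifts, because ABA-linked bZIP factors such as ABI5 are known to bind sites with an ACGTG core. Each is the stretch of 250 bases that ends just before the annotated start, read 5′ to 3′ on the gene's strand from the TAIR10.1 reference. ACGTG, or CACGT on the other strand, is in capitals, and CACGTG stands for both where they overlap. PNC2 (chr5:9716419-9716668, minus strand) and ACX1 (chr4:9428896-9429145, minus strand) fell on ABA in all lines, CSY3 (chr2:17806074-17806323, minus strand) was called higher in SYD1 and HsMYO, ICL (chr3:7656054-7656303, minus strand) was called in none and KAT5 (chr5:19817956-19818205, minus strand) rose in all.
PNC2: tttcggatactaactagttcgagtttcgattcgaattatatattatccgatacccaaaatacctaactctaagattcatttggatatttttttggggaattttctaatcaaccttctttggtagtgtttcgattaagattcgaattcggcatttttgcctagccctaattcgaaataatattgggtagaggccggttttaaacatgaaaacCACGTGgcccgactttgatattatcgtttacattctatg
ACX1: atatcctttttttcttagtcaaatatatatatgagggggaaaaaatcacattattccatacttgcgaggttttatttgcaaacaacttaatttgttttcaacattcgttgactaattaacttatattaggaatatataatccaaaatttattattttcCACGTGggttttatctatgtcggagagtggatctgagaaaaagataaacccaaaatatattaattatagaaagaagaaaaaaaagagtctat
CSY3: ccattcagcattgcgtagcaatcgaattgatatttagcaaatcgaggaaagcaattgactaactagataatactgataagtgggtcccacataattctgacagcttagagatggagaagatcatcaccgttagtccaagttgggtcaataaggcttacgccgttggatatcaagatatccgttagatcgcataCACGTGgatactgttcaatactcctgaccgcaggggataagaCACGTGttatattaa
ICL: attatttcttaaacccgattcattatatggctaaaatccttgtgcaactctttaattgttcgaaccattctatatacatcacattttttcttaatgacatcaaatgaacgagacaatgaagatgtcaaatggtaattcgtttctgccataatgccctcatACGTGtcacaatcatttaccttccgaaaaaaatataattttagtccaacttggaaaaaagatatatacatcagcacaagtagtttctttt
KAT5: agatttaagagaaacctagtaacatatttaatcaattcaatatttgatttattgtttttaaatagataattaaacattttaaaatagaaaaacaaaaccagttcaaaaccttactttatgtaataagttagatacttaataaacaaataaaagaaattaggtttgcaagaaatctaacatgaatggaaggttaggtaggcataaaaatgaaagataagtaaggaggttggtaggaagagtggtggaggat
CACGTG, which reads the same on both strands, occurred in the windows of PNC2, ACX1 and CSY3, 3 of 36 members (8.33%), against 6.49% of 27443 such windows in the annotation. ACGTG on either strand, which CACGTG contains, occurred in 10 of 36 members (27.8%), against 22.9% of all windows; besides those 3 they included ACN1, KAT1, ECH2, ICL, PCK1 and CAT1. The windows with CACGTG thus belong to members called lower and to a member called higher, and the window of KAT5, whose rise was the largest of the members in SYD1 and SYD2, holds neither run of letters. In HsMYO the largest rise was that of ACN1, whose window is 1 of the 10 that hold the core run. ACGTGTC, which holds ACGTG, occurred in ICL and CSY3 (5.56% of members, against 3.68% of all windows). ACGTGGC, which also holds it, occurred in 5.56% of members, PNC2 among them, against 3.37% of all windows. CATGCA occurred in CSY1 alone (2.78% of members, against 8.43%). Each was searched on both strands. A match describes these letters only and is not evidence of binding.

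The second question was how the route differed in seeds with reduced SYD. The SYD lines had more transcript of ICL, PCK1, CAT3 and ACX3 than HsMYO, on ABA and on ethanol, and in their mean CAT1 on ethanol was the single member called lower. On ABA 14 of 35 members were higher and 0 lower in the SYD line mean, against 16.8% and 15.9% of all tested genes. On ethanol 15 were higher and 1 lower, against 17.7% and 14.5% of all genes. The members' median was 0.15 in both treatments, beside -0.02 on ABA and 0.01 on ethanol for all tested genes. On ABA the count of 0 lower was the same with DESeq2 and at an unadjusted p under 0.05. The count of 14 higher on ABA was 12 with only the groups compared, 17 with RLE scaling and 18 with DESeq2. It also varied when single libraries were left out. The count on ethanol depended on single libraries: 8 members were higher without HsMYO on ethanol replicate 1, 7 without its replicate 2, 9 without SYD1 on ABA replicate 1 or 2, SYD1 on ethanol replicate 1 or 2 or SYD2 on ethanol replicate 1, and 8 without SYD2 on ABA replicate 1. ACX3, ECH2, ICL, PMDH2, PCK1 and CAT3 were among those called higher on ethanol under every alternative, and SDP1L, PNC2, ACX3, KAT5, ICL, CSY2, ACO3, PCK1, CAT2 and CAT3 on ABA. Taken singly, SYD1 had 11 members called on ABA (26.2% of all genes) and 9 on ethanol (26% of all genes), and SYD2 had 14 on ABA (25.5% of all genes) and 16 on ethanol (25.9% of all genes). In SYD2 the member called lower on ethanol was ACN1 (-0.34, adjusted p = 0.044), and CAT1 was not called there (adjusted p = 0.12). Both SYD lines are set against the same 2 HsMYO libraries in each treatment, so their differences from HsMYO are not independent of each other. On ethanol the 2 green-cell markers summed to 2450 to 2900 CPM in the SYD lines, against 2060 and 2120 in HsMYO, and the 2 root epidermis markers to 6.91 to 18.8 CPM, against 2.16 and 3.23, and all 4 were called higher in the SYD line mean. Of the 5 seed storage markers 1 was higher on ethanol (SESA4, 2.49) and 4 were not called. The median of the 5 on ethanol was -0.47 and the lowest -0.85. On ABA 2 were higher and 2 lower. Among the 3 endosperm markers MAN7 alone was called, higher by 0.25 on ABA and 0.45 on ethanol. The other 2 were not called, at -0.34 and -0.1 on ethanol and at -0.11 and 0.5 on ABA. The green-cell marker RBCS1A was higher by 0.22 on ABA. The part of these markers in the differences was not tested.

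**Figure D3:**
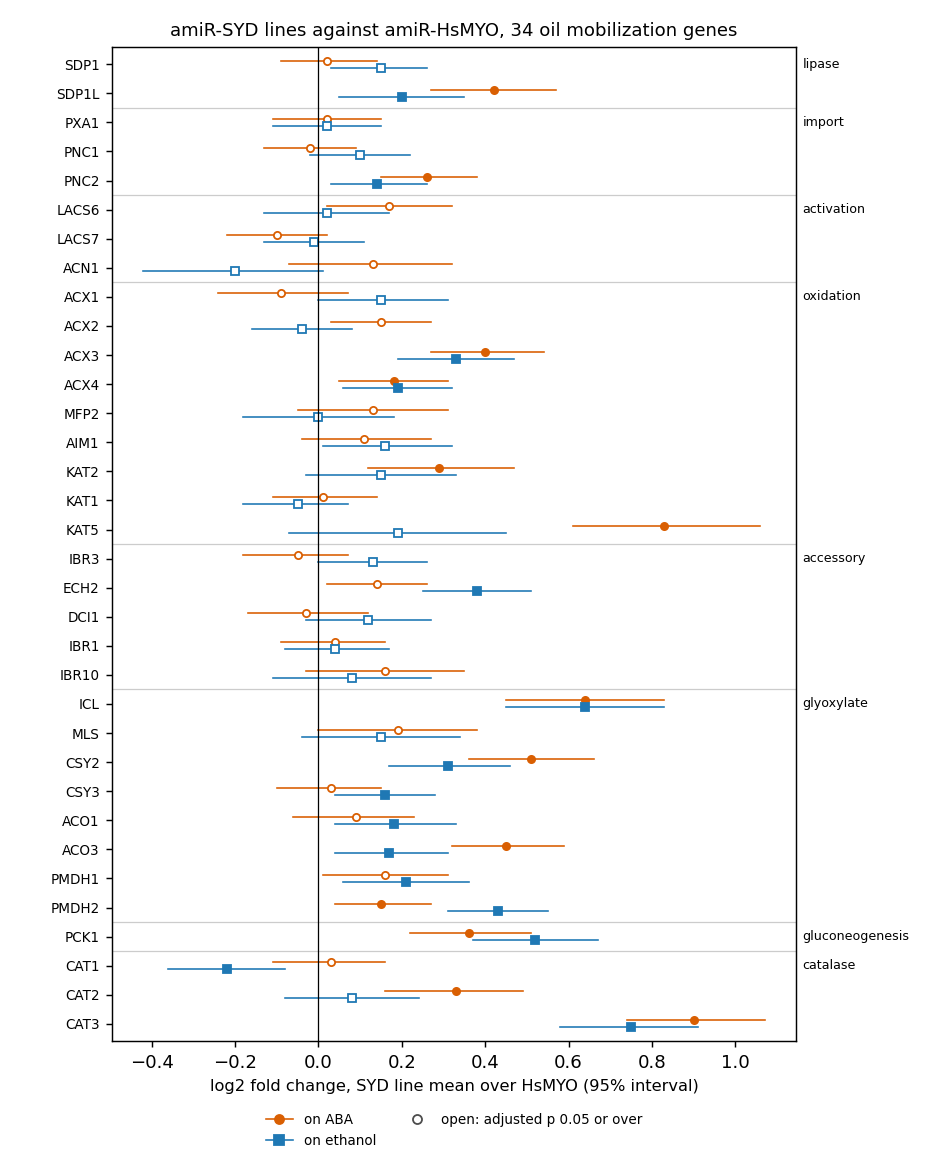
Log2 fold change of the SYD line mean over HsMYO (x axis) for 34 tested members (rows, grouped by role), with circles for ABA and squares for ethanol; lines are 95% intervals, and open symbols have an adjusted p of 0.05 or over. ICL, PCK1 and CAT3 lie to the right in both treatments, and KAT5 does so on ABA.

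ICL accounted for most of the added counts. On ABA it read 27400 and 27800 CPM in SYD1 and 26200 and 27700 in SYD2, against 18600 and 16400 in HsMYO. On ethanol the values were 25300 and 26200 in SYD1 and 29600 and 23700 in SYD2, against 17300 and 16300 in HsMYO. All SYD line libraries lay above all HsMYO libraries, by 1.56-fold in the mean on ABA (log2 0.64 ± 0.09 SE, adjusted p = 7.4e-05) and 1.56-fold on ethanol (0.64 ± 0.09, adjusted p = 6.8e-05). SYD1 and SYD2 taken singly gave 0.65 and 0.62 on ABA and 0.61 and 0.66 on ethanol. MLS, for the enzyme that follows isocitrate lyase in the cycle, differed by 0.19 on ABA (95% interval 0 to 0.38, adjusted p = 0.11) and 0.15 on ethanol (-0.04 to 0.34, adjusted p = 0.22) and was not called.

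PCK1 (AT4G37870, chromosome 4, 17802690 to 17806705), which draws the carbon towards sugar, read 6070 and 5860 CPM in SYD1 and 6810 and 6760 in SYD2 on ABA, against 5200 and 4680 in HsMYO. On ethanol it read 6580 and 6250 in SYD1 and 7630 and 7060 in SYD2, against 4900 and 4670 in HsMYO. The mean difference was 0.36 on ABA (adjusted p = 0.001) and 0.52 on ethanol (adjusted p = 4.6e-05), with no overlap. CAT3 showed the largest difference of the members in each treatment, 1.87-fold on ABA (0.9 ± 0.08 SE, adjusted p = 6e-07) and 1.68-fold on ethanol (0.75 ± 0.08, adjusted p = 3.3e-06). Its level in the SYD lines on ABA, 225 to 254 CPM, still lay below its level in HsMYO on ethanol, 306 and 307 CPM. CAT1 was called lower on ethanol (-0.22, adjusted p = 0.02; lost without HsMYO on ethanol replicate 1, highest adjusted p = 0.21) and differed by 0.03 on ABA, while CAT2 was called higher on ABA (0.33, adjusted p = 0.0043) and differed by 0.08 on ethanol.

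Of the other cycle genes, ACO3 was higher by 0.45 on ABA (adjusted p = 7.2e-05). The ACO3 difference on ethanol, 0.17 (adjusted p = 0.048), was lost in 12 of 17 alternatives, including without any 1 of the SYD line libraries or of the HsMYO ethanol libraries. CSY2 was higher by 0.51 on ABA (adjusted p = 6.1e-05) and 0.31 on ethanol (adjusted p = 0.0027; lost without HsMYO on ethanol replicate 2, highest adjusted p = 0.069). PMDH2 was higher by 0.43 on ethanol (adjusted p = 3.9e-05) and 0.15 on ABA (adjusted p = 0.045, lost in 9 of 17 alternatives). CSY3, ACO1 and PMDH1 were called on ethanol at 0.16, 0.18 and 0.21, each lost in at least 7 of 17 alternatives.

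In beta-oxidation ACX3, the medium-chain oxidase gene, was higher in the SYD lines in both treatments. It read 473 and 470 CPM in SYD1 and 529 and 524 in SYD2 on ABA, against 396 and 357 in HsMYO, and on ethanol 618 and 591 in SYD1 and 703 and 660 in SYD2, against 525 and 497 in HsMYO. The differences were 0.4 on ABA (adjusted p = 0.00021) and 0.33 on ethanol (adjusted p = 0.001), with no overlap in either treatment. ACX4 was called at 0.18 on ABA and 0.19 on ethanol, each lost in 7 of 17 alternatives, whereas ACX1 (-0.09 on ABA, 0.15 on ethanol) and ACX2 (0.15 on ABA, -0.04 on ethanol) were not called. KAT2 was higher on ABA (0.29, adjusted p = 0.014), a call lost without HsMYO on ABA replicate 2 or SYD1 on ABA replicate 1 (0.14 to 0.47 over the alternatives, highest adjusted p = 0.16). ECH2 was higher on ethanol (0.38, adjusted p = 0.00019) and differed by 0.14 on ABA (adjusted p = 0.078). At the entry to the route SDP1L was higher by 0.42 on ABA (adjusted p = 0.00026), with a difference of 0.2 on ethanol lost in 10 of 17 alternatives, and PNC2 by 0.26 on ABA (adjusted p = 0.0016), with 0.14 on ethanol lost in 13 of 17.

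**Figure D4:**
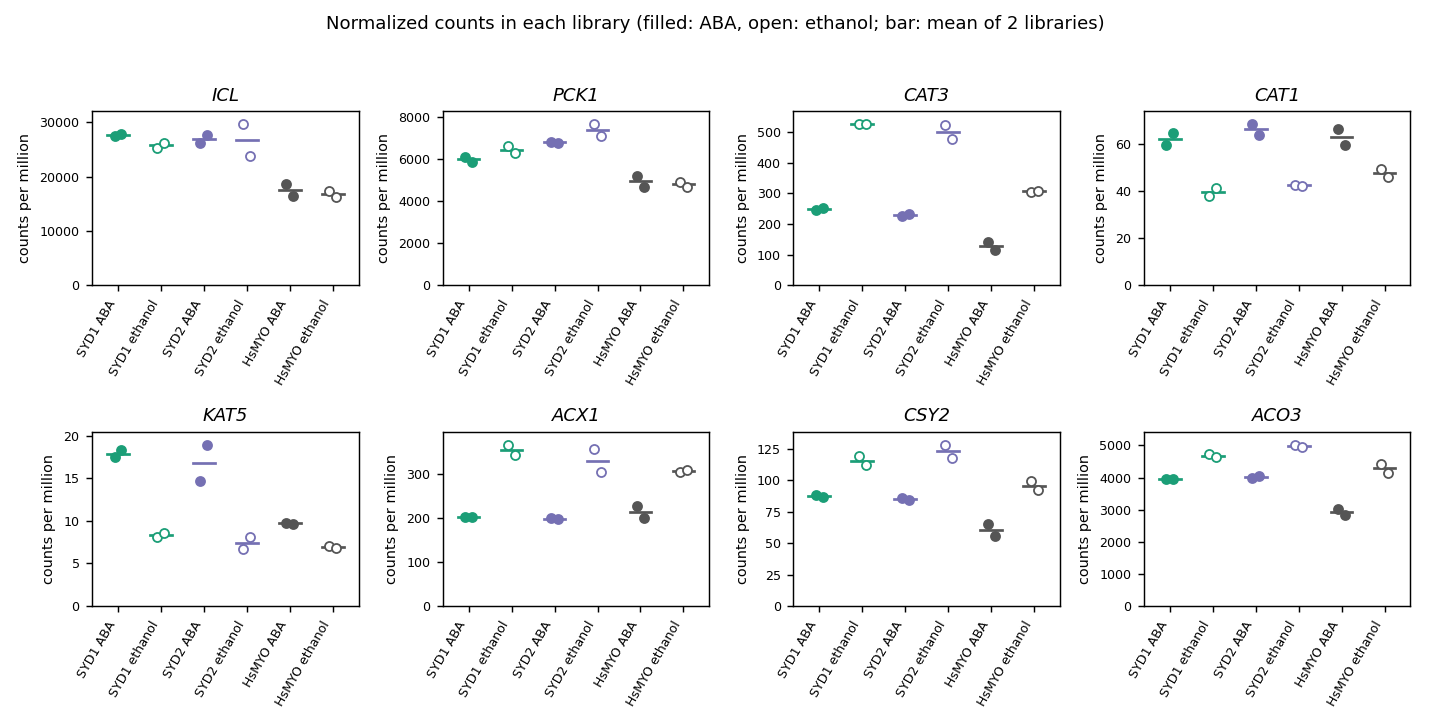
CPM (y axis, from 0) of 8 members in each library, 2 points per group with a bar at their mean; filled points are ABA and open points ethanol, in green for SYD1, violet for SYD2 and grey for HsMYO. ICL and PCK1 are higher in the SYD lines under both treatments, CAT3, ACX1, CSY2 and ACO3 are lower on ABA in each line, and KAT5 on ABA is at 14.7 to 18.9 CPM in the SYD lines and 9.81 and 9.69 in HsMYO.

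Whether ABA acted differently when SYD was reduced was tested as the mean ABA response of the SYD lines minus the HsMYO response. Of 35 members 1 was called, and in the higher direction, against 5.14% of all genes in either direction, 2.69% called higher and 2.45% lower. This was KAT5, whose response was greater by 0.64 ± 0.16 SE in the SYD lines (95% interval 0.3 to 0.99, adjusted p = 0.029). On ABA it was 1.78-fold higher in the SYD line mean than in HsMYO (0.83, adjusted p = 2.8e-05), and on ethanol the difference was 0.19 (adjusted p = 0.26). The difference between responses stayed at 0.55 to 0.76 but was not called in 6 of 16 alternatives (highest adjusted p = 0.14), namely without HsMYO on ABA replicate 2, HsMYO on ethanol replicate 1 or 2, SYD1 on ABA replicate 1 or 2, or SYD1 on ethanol replicate 2. KAT5 overlaps AT5G48870 on the opposite strand by 160 bp, and that gene was not called in this comparison. AT5G48870 was the more abundant, at 25.1 to 34.1 CPM over the libraries, beside 6.72 to 18.9 CPM for KAT5. In SYD2 it was called lower on ABA (-0.29, adjusted p = 0.021 by edgeR). As the strand setting of the counting is not stated, reads of this pair may not be separated. For ICL the difference between responses was 0 (95% interval -0.26 to 0.26), for PCK1 -0.16 (-0.37 to 0.05) and for CAT3 0.16 (-0.07 to 0.38). ACO3 had a difference of 0.28 (adjusted p = 0.085) that DESeq2 called (0.3, adjusted p = 0.0059). Without HsMYO on ABA replicate 1 the call rule found 6 members, KAT5, KAT2, CSY2, ACO3, CAT2 and CAT3.

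Between SYD1 and SYD2 0 members were called in either treatment by edgeR, against 0.846% of all genes on ABA (0.495% higher and 0.352% lower in SYD1) and 0.688% on ethanol (0.413% higher and 0.275% lower). At an unadjusted p under 0.05, 3 members were lower in SYD1 on ABA (9.23% of all genes in either direction), and 2 were higher and 6 lower on ethanol (10.5% of all genes). DESeq2 also called 0 in both treatments.

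Genes around the route were read from lists of 22 peroxins, 12 other peroxisomal proteins, 33 genes for the steps from the glyoxylate cycle to sucrose, of which 32 were tested, and 5 photorespiratory enzymes of the peroxisome. Their counts stand beside the shares of all genes called on ABA, which were 21.7% higher and 25.2% lower in SYD1, 19.4% and 23.6% in SYD2, and 26.9% and 27.1% in HsMYO. On ABA 9 of 22 peroxins were higher and 2 lower in SYD1, 5 and 2 in SYD2, and 14 and 3 in HsMYO. In HsMYO the largest changes were those of PEX19B (0.86), PEX3B (0.52) and PEX13 (0.46), which serve membrane protein import and docking, and of PEX11E (-0.69), PEX11D (-0.26), both for peroxisome division, and PEX14 (-0.16). Of the 12 other peroxisomal proteins 2 were higher and 4 lower in SYD1, 3 and 5 in SYD2, and 5 and 4 in HsMYO. LON2, a protease of the peroxisomal matrix, read 127 and 130 CPM on ABA, against 56.7 and 56.5 on ethanol, in SYD1, 127 and 131 against 59.4 and 59.5 in SYD2, and 137 and 136 against 61.6 and 58.1 in HsMYO, a rise of 1.18 in SYD1, 1.12 in SYD2 and 1.19 in HsMYO on the log2 scale. In HsMYO it was followed by ACX6 (1) and CHY1 (0.3), and the largest decreases were those of MDAR4 (-0.71), APX3 (-0.5) and MDAR1 (-0.34), which detoxify peroxide through ascorbate.

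Of the 32 tested genes for the steps towards sucrose, 9 were higher and 8 lower on ABA in SYD1, 8 and 9 in SYD2, and 10 and 12 in HsMYO. SPS3F, for a sucrose-phosphate synthase, read 154 and 152 CPM on ABA, against 28.3 and 28.5 on ethanol, in SYD1, 163 and 161 against 27.7 and 34.1 in SYD2, and 146 and 152 against 15.2 and 13.2 in HsMYO. It rose by 2.43 in SYD1, 2.38 in SYD2 and 3.39 in HsMYO. The response of the SYD lines minus that of HsMYO was -0.99 (adjusted p = 0.00012), with 146 to 163 CPM on ABA in all lines. SDH2-3, a succinate dehydrogenase subunit gene of embryos, rose by 4.99 in SYD1, 4.95 in SYD2 and 4.19 in HsMYO, and in HsMYO SPS4F rose by 0.7. PCK2, the second carboxykinase gene, had 0 counts on ABA in all lines, against 67 counts on ethanol in SYD1, 35 in SYD2 and 22 in HsMYO, and was at least 24.7-fold lower on ABA in SYD1, 10.8-fold in SYD2 and 8.67-fold in HsMYO (floor of 3 counts over a group, for counting error only). IPGAM1, for a phosphoglycerate mutase, fell by 0.96 in SYD1, 0.89 in SYD2 and 1.22 in HsMYO. UGP1, for a UDP-glucose pyrophosphorylase, fell by 0.47 in SYD1, 0.48 in SYD2 and 0.97 in HsMYO, a difference between responses of 0.49 (adjusted p = 0.028). Of the 5 photorespiratory enzymes 0 were higher and 3 lower in each SYD line, and 1 higher and 4 lower in HsMYO, where GOX2 (-1.34), AGT1 (-0.46) and GOX1 (-0.4) fell and HPR1 rose (0.37).

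In the SYD line mean against HsMYO, 16.8% of all genes were higher and 15.9% lower on ABA, and 17.7% higher and 14.5% lower on ethanol. Of 22 peroxins, 5 were higher and 4 lower on ABA, and 6 higher and 1 lower on ethanol. They included PEX11E (0.4), PEX5 (0.23), PEX3B (-0.28), PEX3A (-0.26) and PEX11C (-0.2) on ABA, and PEX13 (0.31) and PEX3A (-0.24) on ethanol. Other peroxisomal proteins had 2 higher, MDAR4 (0.27) and PXN (0.2), and 1 lower on ABA, and 4 higher and 0 lower on ethanol, led by ACX5 (0.34), MDAR4 (0.3) and PXN (0.3), a peroxisomal NAD carrier. The steps towards sucrose had 11 higher and 1 lower on ABA, with UGP1 (0.88), UGP2 (0.75), IPGAM1 (0.64) and SDH2-3 (-0.84), and 13 higher and 2 lower on ethanol, with PCK2 (1.31), SPS3F (1.07), UGP2 (0.84), SDH2-3 (-1.62) and PGM2 (-0.17). GOX2 was higher by 0.66 and GOX1 by 0.33 on ABA, and AGT1 by 0.74, GOX2 by 0.35 and GOX1 by 0.29 on ethanol, out of 2 and 4 photorespiratory genes called higher and 0 lower.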

How the data were processed

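Raw counts per gene were deposited by the authors as 1 table with a column for each of the 12 libraries, and every column was used. Polyadenylated RNA was sequenced from stranded libraries as 100 bp pairs, per the labels' protocols. Trimmomatic 0.39 trimmed the reads and STAR 2.7.10a mapped them to TAIR10, per the submitters' processing notes. Neither the counting program nor its strand setting is given in the sources used here, so counts of the 9 members that overlap a gene on the opposite strand are uncertain. Isozymes of 1 family share exact runs of at most 63 nt, below the read length.

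The fit used edgeR 4.0.16 in R 4.3.3. The filterByExpr filter (minimum count 10) left 19612 of 36795 entries (10729 had 0 counts throughout). After TMM scaling, 1 quasi-likelihood model over the 12 libraries had a mean for each group and 6 residual degrees of freedom. Its 2-sided F-test was adjusted by Benjamini-Hochberg over all tested genes, and a call means an adjusted p under 0.05. TMM also scales the CPM given here, and intervals are 95%. No member list was tested as a set. Counts differed between replicates by more than counting error (chi-square per degree of freedom 2.4 to 13.3). Levels between genes, and shares within a family, are per kb of exon of the TAIR10.1 annotation of RefSeq, which also gave the upstream sequences and the names of genes outside the route; its nuclear chromosomes were used for positions, since the count table holds none. The submitters' TAIR10 and TAIR10.1 were taken as alike for gene models, and this was not tested.

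The members and all lists were chosen with earlier results of these data known. The members are named except where a gene is not reported here. Of the other lists up to 3 genes called in each direction are named, by the size of their log2 fold change, in HsMYO on ABA, in both SYD line comparisons and in the difference between responses. The alternatives were RLE scaling, no low-count filter, replicate number as a block, DESeq2 1.42.0, only the groups compared, each library left out in turn, and shares of raw counts.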

Additional observations from a re-analysis of the deposited data

Results flagged for a closer look

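KAT5, for a thiolase of low abundance, drew attention because its ABA response differed between the SYD lines and HsMYO by a test of the difference itself. The SYD line response exceeded that of HsMYO by 0.64 on the log2 scale (edgeR, adjusted p = 0.029), with 17.5 and 18.3 CPM in SYD1 and 14.7 and 18.9 CPM in SYD2 on ABA, against 9.81 and 9.69 CPM in HsMYO on ABA. The call was lost in 6 of 16 alternatives, and its cause was not tested.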

How the results depend on the processing

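Of 94 calls of single members, 62 held under every alternative, 32 were lost under at least 1 and 0 reversed. With no low-count filter, 9 members were higher and 2 lower in the SYD line mean on ethanol (15 and 1 in the main analysis), and 4 had a higher ABA response in the SYD lines (1 in the main analysis). Over all tested genes, deviations of libraries with the same replicate number correlated only weakly between groups (-0.03 to 0.15). Several members did share a direction. KAT2, MFP2, MLS, PCK1, LACS6, ACX3, IBR3, AIM1, CSY2, CSY3, PMDH1 and CAT2 read higher in replicate 1 than in replicate 2 in every group. PNC2 read lower in replicate 1 in every group. The main fit did not use replicate number. Whether replicate number pairs the libraries was thus not settled. With replicate number as a block, 3 members had a higher response (KAT5, ACO3 and CAT2) and 1 a lower one (PMDH2). In the SYD line mean the block gave 19 members higher on ABA (14 in the main analysis) and 17 on ethanol (15 in the main analysis). Apart from the response difference, it moved no count of calls by over 1.5 times. DESeq2 gave 2 higher responses. With only the groups compared, 1 member was lower in SYD1 than in SYD2 on ABA. Leaving out each library in turn gave 7 to 18 members higher and 0 to 2 lower in the SYD line mean on ethanol, 7 to 11 lower on ABA in SYD1, and 0 to 6 with a higher and 0 to 1 with a lower response; where 1 library remained in a group, it was assumed to vary like the other groups. The cause of these shifts was not tested. Shares of raw counts in HsMYO on ethanol were 74.2% for SDP1, 62.8% for PNC2, 25.7% for ACX4, 97.4% for KAT2, 85.6% for CSY3, 93.9% for ACO3 and 86.5% for CAT2, against 71.7%, 63.3%, 31.7%, 96.9%, 88.6%, 93.7% and 88% per kb, since the genes differ in length. The median over all genes moved by under 0.1 between scalings. With 2 libraries a group, the intervals given for members that were not called bound their changes.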
